A study of Mus musculus with 15 samples.

Results

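Amino acid catabolism was described through 40 genes that encode enzymes breaking down amino acids, and a few related compounds, in the liver. A probe belonged to the set if it was not a control and the array named it for 1 of these genes, which gave 47 of the 55681 non-control probes. All 40 were among the 22594 genes of the array that the RefSeq table names. They cover the breakdown of tyrosine (4 genes), tryptophan (5), histidine (2), methionine (6), homocysteine and cysteine (4), serine, glycine and sarcosine (5), the branched-chain amino acids and propionate (7), the transfer of amino groups (4), and proline, lysine and pyrimidines (3).

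In mammals most amino acids that are not built into protein are broken down in hepatocytes, whose enzymes remove the amino group for urea synthesis and feed the carbon skeleton into glucose, ketone bodies or the citric acid cycle. Many of these enzymes are confined largely to differentiated hepatocytes, and several, such as tyrosine aminotransferase and tryptophan dioxygenase, are classical targets of glucocorticoid hormones. Hepatocellular carcinoma (HCC) is a tumor with hepatocyte features, and intrahepatic cholangiocarcinoma (ICC) is one with features of bile duct cells.

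RNA of 15 whole mouse liver tumors was measured, each on 1 single-colour Agilent array. Of these, 5 were HCC of p53f/f mice, which carry the floxed Trp53 gene without its deletion, 5 were HCC of p53LKO mice, in which Trp53 was deleted in the liver, and 5 were tumors of p53LKO mice labelled ICC. All mice were on a C57BL/6J background and had received carbon tetrachloride (CCl4), a liver toxin, at 0.5 µl per g of body weight by intraperitoneal injection every 3 days for 16 weeks, as the labels give it, while the study's methods state a different interval. The study's legend gives the mice of the HCC comparison as male, and the sex of mouse 3977, which gave an ICC alone, is not given in the sources used here. The sources used here name neither the promoter of the recombinase nor the age at which each tumor was taken. The study reports that tumors arose significantly later in p53f/f than in p53LKO mice. The HCC groups may thus differ in age, which cannot be told apart from genotype. Mouse 3717 gave 2 of the p53f/f HCC, and mice 3731, 3733, 3976 and 5283 each gave 1 HCC and 1 ICC, so that not all tumors are independent animals. Levels are log2 of the processed signal after subtraction of the 75th percentile of the array, and a level of 0 is thus the signal that 75% of its probes stay below. Values of single tumors are given in the order of mice 3681, 3715, 3716 and 3717 (T1, then T2) for p53f/f HCC, of mice 3976, 5283, 3731, 3733 and 3975 for p53LKO HCC, and of mice 3731, 3733, 3976, 3977 and 5283 for ICC.

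The level of Trp53 was -1.27 to -0.68 in the p53f/f HCC, -3.86 to -2.75 in the p53LKO HCC and -4.19 to -2.31 in the ICC, without overlap between the genotypes. The summed level of 8 hepatocyte marker genes was 11.8 to 12.8 in p53f/f HCC, 11.5 to 11.96 in p53LKO HCC and 9.94 to 11.2 in ICC, and all 8 were well above background in every tumor. The summed level of 8 biliary markers was 1.74 to 4.76, 2.28 to 3.36 and 6.04 to 7.16 in the same order. Epcam, a marker of bile duct cells, was well above background in 5 of 5 ICC and in 0 of 5 p53LKO HCC. All 8 biliary markers were well above background in the p53f/f HCC of mouse 3717 (T2), against 5 to 6 of 8 in each ICC. The summed biliary level thus separated ICC from HCC, while the number of detected markers did not. Hepatocyte transcripts were measured in every ICC too. The arrays lay in an upper and a lower row of 2 slides. All p53f/f HCC were in the upper row and all ICC in the lower row, and the 2 p53LKO HCC in the lower row, of mice 3976 and 5283, measured fewer probes well above background (46.4% and 37.0%) than the other 3 (61.0% to 62.1%).

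The stretch upstream of the transcription start is shown for the 3 members that were lower in p53LKO HCC (Hal, Tdo2 and Agxt) and for the member with the largest fall in ICC (Gldc). Each is the 250 bases before the start, 5′ to 3′ on the strand of the gene, from RefSeq promoter sequences of build GRCm38.p6, and capitals mark the motifs found. The windows are chr10:93488518-93488767 (plus strand) for Hal, chr3:81975729-81975978 (minus strand) for Tdo2, chr1:93134990-93135239 (plus strand) for Agxt and chr19:30175442-30175691 (minus strand) for Gldc.
Hal: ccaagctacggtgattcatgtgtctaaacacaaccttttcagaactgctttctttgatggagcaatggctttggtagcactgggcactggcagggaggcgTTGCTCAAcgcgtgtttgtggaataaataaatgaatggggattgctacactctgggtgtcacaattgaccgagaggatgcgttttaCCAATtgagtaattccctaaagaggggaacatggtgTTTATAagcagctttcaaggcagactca
Tdo2: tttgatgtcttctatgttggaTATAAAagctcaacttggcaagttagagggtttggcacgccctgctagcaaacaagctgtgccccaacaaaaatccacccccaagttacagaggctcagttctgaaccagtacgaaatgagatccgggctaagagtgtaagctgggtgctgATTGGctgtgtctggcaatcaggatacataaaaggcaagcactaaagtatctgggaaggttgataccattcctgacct
Agxt: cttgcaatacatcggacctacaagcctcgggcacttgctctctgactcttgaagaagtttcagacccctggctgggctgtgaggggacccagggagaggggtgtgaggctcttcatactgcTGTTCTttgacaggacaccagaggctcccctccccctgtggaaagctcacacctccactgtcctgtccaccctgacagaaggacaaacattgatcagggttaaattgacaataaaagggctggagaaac
Gldc: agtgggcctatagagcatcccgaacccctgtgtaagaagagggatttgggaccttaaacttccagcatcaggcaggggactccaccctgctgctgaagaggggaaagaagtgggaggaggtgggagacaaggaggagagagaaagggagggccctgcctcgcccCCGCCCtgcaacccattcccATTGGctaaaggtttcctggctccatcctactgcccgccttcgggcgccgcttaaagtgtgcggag
Of the 40 members 32 had such a window. The search, on both strands, looked for TATAAA, the TATA box, for CCAAT, the CCAAT box, for GGGCGG, the GC box, for TTGCNNAA, which C/EBP factors bind, for GTTAAT and CAAAGTC, cores of the HNF1 and the HNF4 site, for TGTTCT, core of the steroid receptor site, and for CATGNNNNNNCATG, adjacent cores of a p53 site. No motifs overlapped in the windows shown. The Hal window held TATAAA on the opposite strand (capitals TTTATA) 28 to 23 bases before the start, a CCAAT box 64 to 60 bases before it and the C/EBP letters 150 to 143 bases before it. In the Tdo2 window there was a CCAAT box on the opposite strand 78 to 74 bases before the start and TATAAA 229 to 224 bases before it, and in that of Agxt only TGTTCT, 129 to 124 bases before it. Gldc had a CCAAT box 66 to 62 bases and a GC box 86 to 81 bases before the start, both on the opposite strand, and no TATAAA. Over all members with a window, 5 of 32 held TATAAA (12.4% of all 32851 windows), 17 a CCAAT box (33.8%), 14 a GC box (32.7%), 3 TTGCNNAA (9.56%), 3 GTTAAT (6.43%), 1 CAAAGTC (3.84%), 4 TGTTCT (16.1%) and 0 the p53 letters (0.490%). Members were counted by gene, the 32 having 35 windows, while the percentages are by window. A match describes letters in these windows and no binding was measured.

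Setting p53LKO HCC against p53f/f HCC asks what differs in HCC that lack p53. Amino acid catabolism genes differed little as a group between these HCC, but Hal, Tdo2 and Agxt, which encode the enzymes that act on histidine, tryptophan and glyoxylate, were 4.33-fold to 9.18-fold lower in p53LKO HCC. Csad, an enzyme of taurine synthesis, was 2.46-fold higher. A member was called at an adjusted p under 0.05 in limma's linear model, adjusted over all 36086 probes tested, with a change over 2-fold, and each gene was represented by its brightest probe. All 40 members passed the filter on dim probes and were well above background on 5 of 5 arrays of each HCC group. Of these, 3 were called lower (9.00% of all 16850 genes tested) and 1 was called higher (5.42% of all genes). The groups did not overlap for 3 members that were lower (9.63% of all genes) and for 0 that were higher (8.54% of all genes). Counts of calls and of groups without overlap were thus near or below the background. The median log2 fold change was -0.12 over the members and 0.09 over all genes tested, with 16 members above 0 and 24 below. This balance depended on the scaling, since with the arrays scaled to 7 spike-in probes, which moved the median of all genes by 0.73, 34 members were above 0, 10 were called higher and 3 lower, with 35.6% of all genes called higher in that setting. RNA was taken from whole tumors, so fewer hepatocytes and less RNA per hepatocyte cannot be told apart, and the p-values measure only the spread between these tumors. Of the marker lists, 1 of 8 hepatocyte, 1 of 6 endothelial, 1 of 7 leukocyte and 1 of 5 pancreatic acinar markers were called lower in p53LKO HCC, 1 of 8 stellate cell and fibroblast markers was called higher, and 0 of 5 biliary markers were called. The summed leukocyte marker level was 5.60 to 5.91 in p53LKO HCC and 6.35 to 7.43 in p53f/f HCC, without overlap. A sum follows the brightest markers, and 4 of the 7 had a log2 fold change above 0 (median 0.11). The part of leukocytes in these results was not tested.

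**Figure D1:**
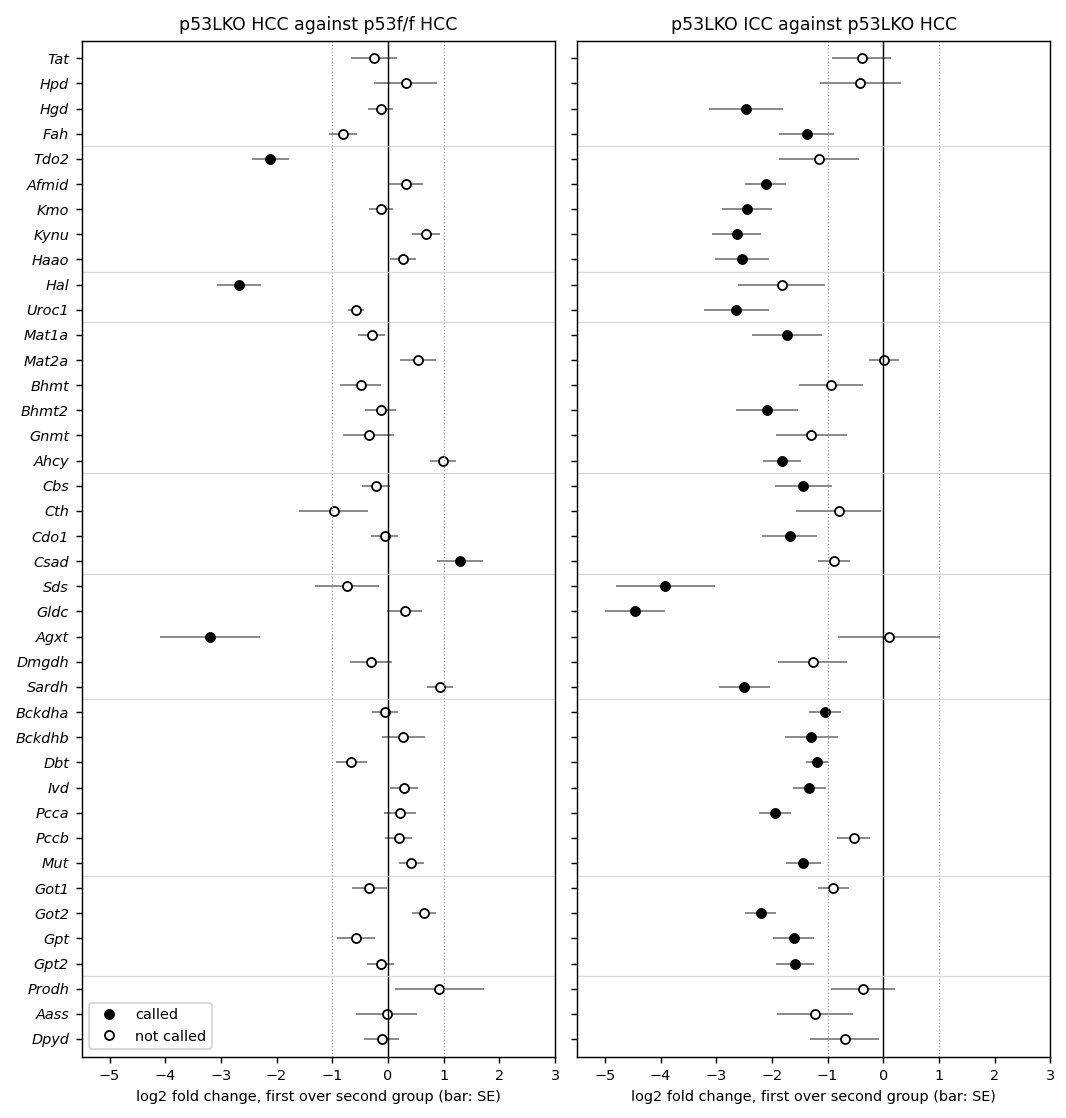
Log2 fold change (x axis) of each of the 40 members (y axis, ordered by pathway), with its standard error from limma, for p53LKO HCC over p53f/f HCC (left) and p53LKO ICC over p53LKO HCC (right). Filled points are called members, 4 on the left and 24 on the right, and dotted lines mark a 2-fold change.

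Hal, histidine ammonia-lyase, which makes urocanate from histidine, had levels of 6.14, 4.64, 5.0, 5.43 and 4.98 in the p53f/f HCC. In the p53LKO HCC its levels were 2.48, 3.23, 3.26, 2.51 and 1.33. Every p53LKO HCC was lower than every p53f/f HCC, and the tumor of mouse 3975 was the lowest. p53f/f HCC averaged 5.24 ± 0.58 (SD, n = 5) and p53LKO HCC averaged 2.56 ± 0.78 (SD, n = 5). This made a log2 fold change of -2.67 (SE 0.39, limma adjusted p = 0.00057). The next enzyme of the same pathway, urocanase (Uroc1), showed a much smaller difference without overlap. Its levels of 5.08, 4.85, 4.89, 5.09 and 5.10 in p53f/f HCC stood against 4.54, 4.59, 4.46, 4.39 and 4.17 in p53LKO HCC. Uroc1 had a change of -0.57 (SE 0.15, limma adjusted p = 0.0125), under 2-fold and not called.

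Tdo2, tryptophan dioxygenase, which opens the ring of tryptophan in the first step towards kynurenine, had levels of 4.81, 3.19, 3.92, 4.94 and 4.50 in p53f/f HCC. In the p53LKO HCC they were 2.09, 2.75, 2.04, 2.22 and 1.69. Here too the groups did not overlap, with the tumors of mice 3715 and 5283 closest to each other. Tdo2 had a log2 fold change of -2.11 (SE 0.34, limma adjusted p = 0.000939). Hal and Tdo2 were called in each of the 27 alternatives planned for this comparison. On slide 1 alone, with 4 p53f/f HCC and 2 p53LKO HCC, Hal was called and Tdo2 was at -1.80 (adjusted p = 0.0802). Slide 2 held 1 p53f/f HCC against 3 p53LKO HCC, so the single tumor was assumed to vary like the others and the values there, -2.61 for Hal and -2.51 for Tdo2, describe a direction and are no check of the calls. The exact permutation p of Hal, Tdo2 and Uroc1 was 0.00794, the smallest that 5 arrays against 5 can give.

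Agxt, the peroxisomal aminotransferase that turns glyoxylate into glycine, varied more than any other member within the p53LKO HCC. Its levels were 7.37, 3.68, 4.67, 6.67 and 6.36 in the p53f/f HCC and 3.31, 4.17, 3.40, -0.32 and 2.20 in the p53LKO HCC. The groups overlapped, since the p53LKO HCC of mouse 5283 lay above the p53f/f HCC of mouse 3715, and the p53LKO HCC of mouse 3733 was far below all others. The log2 fold change was -3.20 (SE 0.90, limma adjusted p = 0.0192), and -2.48 without the tumor of mouse 3733 (adjusted p = 0.0291). With the slide as a block the value was -2.84 and no longer called (adjusted p = 0.0565), and neither the methods' t-test nor the Mann-Whitney test called it (adjusted p = 0.0563 and 0.0542).

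Csad, cysteine sulfinate decarboxylase, which leads cysteine carbon and sulfur towards taurine, was the only member called higher. Its levels were 3.42, 5.05, 4.07, 2.68 and 3.05 in p53f/f HCC, against 5.27, 5.51, 4.76, 4.47 and 4.76 in p53LKO HCC. The p53LKO HCC were close together, while the p53f/f HCC of mouse 3715 lay above 3 of them and the other 4 p53f/f HCC lay below all. Csad had a log2 fold change of 1.30 (SE 0.41, limma adjusted p = 0.0326). The call was lost in 13 of the 27 alternatives, among them quantile normalization (1.05, adjusted p = 0.0703), and after leaving out the p53f/f HCC of mouse 3681 or either tumor of mouse 3717, or the p53LKO HCC of mouse 3976 or 5283, where the adjusted p was 0.0647 to 0.0757.

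**Figure D2:**
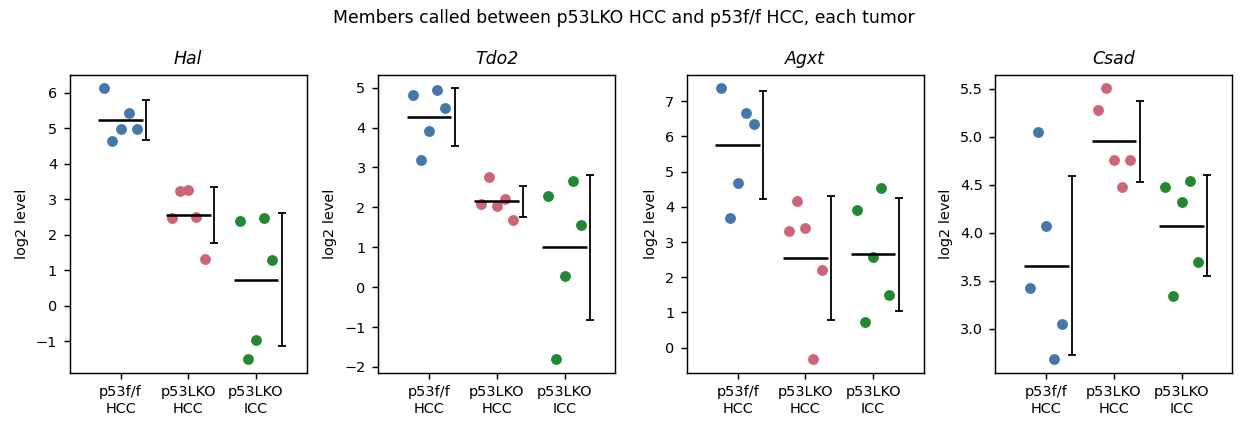
Log2 level (y axis) of the 4 members called between p53LKO HCC and p53f/f HCC in each of the 15 tumors (points), with the mean of each group (line) and its SD (bar, n = 5). Hal and Tdo2 did not overlap between the HCC groups, while single tumors of Agxt and Csad did.

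The other pathways were represented by members that were not called. Ahcy, which cleaves S-adenosylhomocysteine in the methionine cycle, and Sardh, which oxidises sarcosine to glycine, passed the adjusted p in limma and stayed under 2-fold, with log2 fold changes of 0.99 (SE 0.23, adjusted p = 0.00849) and 0.94 (SE 0.23, adjusted p = 0.0107). Fah, the last enzyme of tyrosine breakdown, and Got2, the mitochondrial aspartate aminotransferase, did the same at -0.80 (SE 0.25, adjusted p = 0.0319) and 0.65 (SE 0.22, adjusted p = 0.0428). Ahcy and Sardh were each called in 7 of the alternatives, for example with the slide as a block (1.09, adjusted p = 0.0117, and 1.14, adjusted p = 0.00442), Fah in 4, for example with the row as a block (-1.03, adjusted p = 0.0194), and Got2 in 2. A second probe of Ahcy read lower, at 0.52 (adjusted p = 0.169), and lies on another chromosome than the gene according to the array's annotation. The other members of the tyrosine pathway were between -0.26 (Tat) and 0.32 (Hpd), and 7 of 7 genes of branched-chain amino acid and propionate breakdown were between -0.66 (Dbt) and 0.42 (Mut), with none called. Afmid, Kmo, Kynu and Haao, which act after Tdo2 on the way from tryptophan to NAD, lay between -0.13 and 0.69 and were not called.

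The comparison of p53LKO ICC with p53LKO HCC sets 2 tumor types of one genotype against each other and shares the 5 p53LKO HCC arrays with the first. Amino acid catabolism genes were broadly lower in ICC, with Gldc of the glycine cleavage system 22.0-fold and Sds, serine dehydratase, 15.1-fold lower on average, the latter with 1 ICC not well above background. The transaminases Got2, Gpt and Gpt2 and the propionate enzymes Pcca and Mut were among the 24 of 40 members called lower (15.5% of all 16140 genes tested), while 0 were called higher (12.3% of all genes). No member was higher at an unadjusted p under 0.05 in limma either, and the methods' t-test and the Mann-Whitney test called 0 higher. In 19 members every ICC was below every p53LKO HCC (20.3% of all genes), and in 0 every ICC was above (10.4% of all genes). The median log2 fold change was -1.40 over the members and -0.19 over all genes tested, and 38 of 40 members were below 0. All 40 were tested and well above background on 5 of 5 arrays of each group, apart from Sds with 4 of 5 ICC. Beside this, 6 of 8 hepatocyte markers were called lower (median -1.63), 4 of 7 biliary and 6 of 8 stellate cell and fibroblast markers were called higher. Leukocyte markers were called higher in 2 of 7, with a summed level of 6.29 to 7.35 in ICC that did not overlap with the p53LKO HCC, pancreatic acinar markers were called lower in 2 of 4, and 0 of 6 endothelial markers were called. The part of the cell mixture in these results was not tested.

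The number called lower was 17 to 26 over the alternatives planned. All ICC lay in the lower row of the slides, and against the 2 p53LKO HCC of that row alone 17 members were called lower with a median of -1.82, while with the row as a block there were 19. With the slide as a block 20 were called and on slide 2 alone 19. Slide 1 held 1 ICC against 2 HCC, so that the spread of ICC was not measured there, and 39 of 40 members were below 0.

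**Figure D3:**
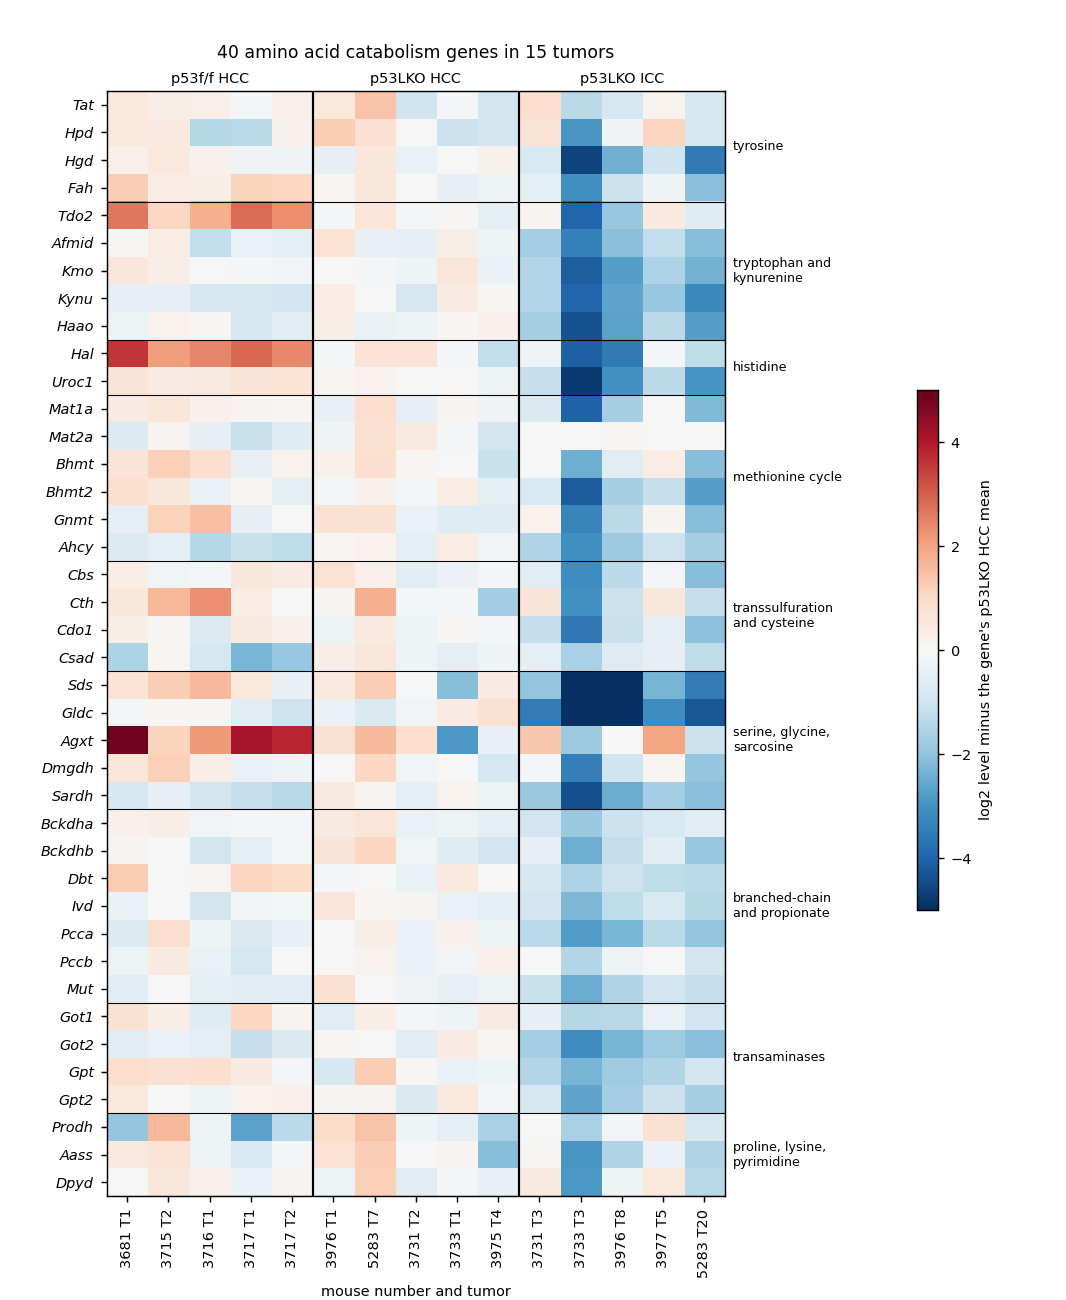
Log2 level of the 40 members (rows, by pathway) in the 15 tumors (columns, by mouse number and tumor), minus the mean of the gene in p53LKO HCC. Blue is lower and red is higher, and colours end at -5 and 5, which Sds and Gldc pass in 2 ICC each. The ICC of mouse 3733 is the bluest column.

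The largest falls were in the breakdown of serine and glycine. Gldc, the glycine decarboxylase of the mitochondrial glycine cleavage system, had levels of 4.29, 3.87, 4.48, 4.99 and 5.37 in the p53LKO HCC and of 1.12, -1.48, -0.73, 1.48 and 0.33 in the ICC. The lowest HCC was over 2 log2 units above the highest ICC, and 4 of 5 p53f/f HCC, at 4.53, 4.69, 4.68, 4.05 and 3.58, lay within the range of the p53LKO HCC. The log2 fold change was -4.46 (SE 0.54, limma adjusted p = 0.000185). Sds, which makes pyruvate from serine, read 3.83, 4.58, 3.40, 1.22 and 3.77 in p53LKO HCC and 1.37, -3.09, -1.92, 1.02 and -0.13 in ICC. The groups overlapped through the HCC of mouse 3733, and the ICC were spread over more than 4 log2 units. The log2 fold change of Sds was -3.91 (SE 0.89, limma adjusted p = 0.00528), and -3.28 without the ICC of mouse 3733, in which the probe was not well above background (adjusted p = 0.00931). Sardh fell by 2.50 on the log2 scale (SE 0.46, limma adjusted p = 0.00168) with no overlap, and Dmgdh, the enzyme before it in choline breakdown, was at -1.27 and not called (adjusted p = 0.118). Agxt did not separate ICC from HCC, with ICC levels of 3.91, 0.73, 2.59, 4.54 and 1.49 and a log2 fold change of 0.10 (SE 0.91, limma adjusted p = 0.939).

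Of the 5 genes from tryptophan to NAD, 4 were lower in ICC without overlap between the groups. Kynu, kynureninase, read 2.79, 2.46, 1.57, 2.84 and 2.49 in p53LKO HCC and 0.97, -1.53, -0.19, 0.52 and -0.78 in ICC. Haao, which makes the precursor of quinolinate, read 5.97, 5.35, 5.42, 5.77 and 5.88 in the HCC and 4.02, 1.31, 3.01, 4.39 and 2.93 in the ICC. The ICC of mouse 3733 was the lowest and those of mice 3731 and 3977 the highest for both genes. Log2 fold changes were -2.63 for Kynu (SE 0.44, limma adjusted p = 0.00108) and -2.54 for Haao (SE 0.49, limma adjusted p = 0.00211). Kmo, kynurenine monooxygenase, and Afmid, kynurenine formamidase, followed at -2.45 (adjusted p = 0.00181) and -2.11 (adjusted p = 0.00138). A second Kynu probe was called too, at -2.18, though there the ICC of mouse 3731 reached into the range of HCC. Tdo2, which opens the pathway and was already lower in p53LKO HCC than in p53f/f HCC, read 2.30, -1.80, 0.28, 2.65 and 1.56 in ICC. This put 2 ICC above the HCC mean and 1 far below, and the log2 fold change of -1.16 (SE 0.72, limma adjusted p = 0.208) was not called.

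In histidine breakdown Uroc1 was called and Hal was not. Uroc1 had ICC levels of 3.27, -0.34, 1.41, 3.13 and 1.50, all below the narrow range of 4.17 to 4.59 in p53LKO HCC. Its log2 fold change was -2.64 (SE 0.58, limma adjusted p = 0.00458), and the call was lost within the lower row alone (-2.77, adjusted p = 0.0645). Hal, at 2.38, -1.50, -0.97, 2.49 and 1.31 in ICC, overlapped with the HCC, with a log2 fold change of -1.82 (SE 0.78, limma adjusted p = 0.0794). With the mouse as a replicate block, which compares the HCC and ICC of 4 mice, Hal was called at -2.57 (adjusted p = 0.0220).

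In the tyrosine pathway Hgd, homogentisate dioxygenase, fell by 2.47 (SE 0.67, limma adjusted p = 0.0123) and Fah fell by 1.37 (SE 0.49, limma adjusted p = 0.0411). The call of Hgd was lost with the row as a block (-2.54, adjusted p = 0.0667), in the lower row alone (adjusted p = 0.114) and with the methods' t-test (adjusted p = 0.0651). Both are late steps, and Tat and Hpd, the early ones, had values of -0.39 and -0.42 that were not called. The ICC levels of Tat were 3.89, 1.70, 2.17, 3.22 and 2.21, so that the ICC of mouse 3731 lay above 4 of 5 p53LKO HCC. The call of Fah was lost in 15 of 26 alternatives, among them the slide and the row as a block (adjusted p = 0.0629 and 0.0810), quantile normalization (adjusted p = 0.144) and leaving out any of 7 tumors in turn (adjusted p = 0.0546 to 0.0860), and the difference between early and late steps was not tested.

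**Figure D4:**
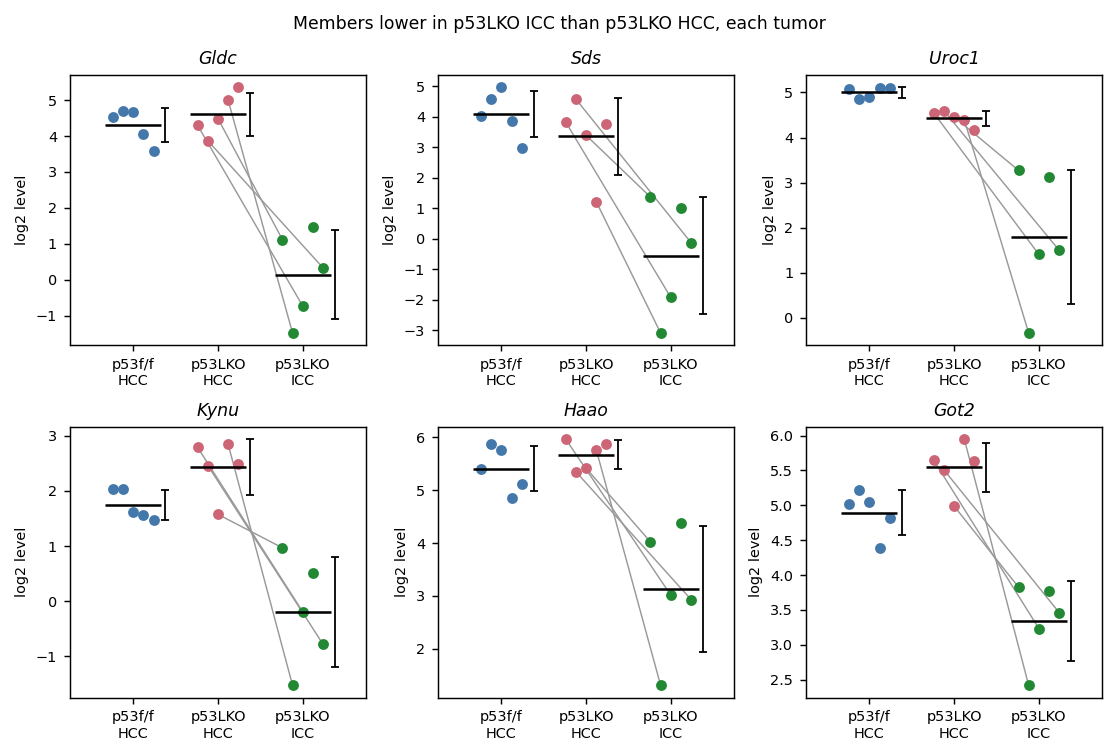
Log2 level (y axis) of 6 members in each of the 15 tumors (points), with group means (lines) and SD (bars, n = 5). Grey lines join the HCC and ICC of the same mouse, and each of them goes down in all 6 genes.

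Among the 7 genes of branched-chain amino acid and propionate breakdown 6 were called lower in ICC, with values of all 7 between -1.94 and -0.53. Pcca, the biotin-carrying subunit of propionyl-CoA carboxylase, fell by 1.94 (SE 0.29, limma adjusted p = 0.000524), and Mut, methylmalonyl-CoA mutase, which completes the path to succinyl-CoA, fell by 1.44 (SE 0.31, limma adjusted p = 0.00424). Pccb, the partner subunit of Pcca, was at -0.53 (SE 0.29, limma adjusted p = 0.154) and not called. Ivd, of leucine breakdown, and the 3 components of the branched-chain ketoacid dehydrogenase, Bckdhb, Dbt and Bckdha, were at -1.33, -1.29, -1.19 and -1.04. ICC and HCC did not overlap for Pcca, Mut, Ivd, Dbt and Bckdha. Bckdhb overlapped and lost its call in 12 of 26 alternatives, among them leaving out any of 6 tumors (limma adjusted p = 0.0641 to 0.109). Bckdha lost its call in 7, among them leaving out any of 3 tumors (-0.84 to -0.93, then under 2-fold). With the slide as a block Bckdha was under 2-fold too (-0.93), and Dbt was with normexp background correction (-0.81). With the percentile of detected probes Bckdhb, Bckdha, Dbt and Ivd were not called (-0.92, -0.67, -0.82 and -0.96), and with quantile normalization Bckdhb and Bckdha were not (-0.91 and -0.67).

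In the methionine cycle and the conversion of homocysteine to cysteine, 5 of 10 members were called lower in ICC. Ahcy fell by 1.82 (SE 0.34, limma adjusted p = 0.00179), and its second probe by 1.52 (adjusted p = 0.0104). Cdo1, cysteine dioxygenase, fell by 1.68 (SE 0.49, limma adjusted p = 0.0170), and Cbs, cystathionine synthase, fell by 1.43 (SE 0.51, limma adjusted p = 0.0407). The call of Cdo1 was lost with the row as a block (adjusted p = 0.0716), in the lower row alone (adjusted p = 0.121), with quantile normalization (adjusted p = 0.0731) and with the methods' t-test (adjusted p = 0.0736). The call of Cbs was lost in 15 of 26 alternatives, among them the slide and the row as a block (adjusted p = 0.0596 and 0.0611), quantile normalization (adjusted p = 0.162) and leaving out any of 7 tumors (adjusted p = 0.0541 to 0.0891). Cth, the enzyme after Cbs, was at -0.80, Gnmt, which consumes S-adenosylmethionine, at -1.29 and Csad at -0.88, none of them called. Csad passed the adjusted p (0.0277) and stayed under 2-fold, and it was called with the mouse as a replicate block (-1.04, adjusted p = 0.0449).

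Mat1a and Mat2a make S-adenosylmethionine from methionine, Mat1a in the adult liver and Mat2a in most other tissues. Mat1a had levels of 4.76, 4.95, 4.57, 4.49 and 4.47 in the p53f/f HCC, then 3.97, 5.18, 3.95, 4.50 and 4.18 in the p53LKO HCC, and 3.64, 0.30, 2.70, 4.33 and 2.17 in the ICC. Mat2a had levels of 3.97, 4.81, 4.25, 3.53 and 4.04 in the p53f/f HCC, 4.48, 5.41, 5.09, 4.59 and 3.72 in the p53LKO HCC, and 4.68, 4.63, 4.73, 4.66 and 4.63 in the ICC. Mat2a was thus at nearly one level in the 5 ICC, with the smallest SD of any member (0.04, n = 5), where Mat1a ranged over 4 log2 units. The log2 fold change in ICC was 0.01 for Mat2a (SE 0.28, limma adjusted p = 0.980) and -1.73 for Mat1a (SE 0.63, limma adjusted p = 0.0451), a call that was lost in 17 of 26 alternatives, after leaving out any of 8 tumors (adjusted p = 0.0543 to 0.0951) and with the mouse as a replicate block (-2.20, adjusted p = 0.0508). A second Mat2a probe was at -0.14 (adjusted p = 0.714). The log2 ratio of Mat1a to Mat2a within a tumor differed by -1.74 between ICC and p53LKO HCC (exact permutation p = 0.0476, adjusted p = 0.0952 over 8 such tests) and by -0.83 between p53LKO and p53f/f HCC (exact permutation p = 0.0317, adjusted p = 0.0847).

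Bhmt and Bhmt2 lie side by side on mouse chromosome 13 (mm9 positions 94386856 and 94426379 of their probes) and both return methyl groups to homocysteine, Bhmt from betaine and Bhmt2 from S-methylmethionine. Bhmt had levels of 8.29, 8.81, 8.47, 7.25 and 7.80 in p53f/f HCC, then 7.84, 8.44, 7.73, 7.65 and 6.51 in p53LKO HCC, and 7.65, 5.20, 7.10, 8.01 and 5.50 in ICC. Bhmt2 had levels of 5.17, 4.93, 4.02, 4.48 and 3.92 in p53f/f HCC, then 4.30, 4.60, 4.33, 4.73 and 3.89 in p53LKO HCC, and 3.62, 0.20, 2.72, 3.21 and 1.62 in ICC. All ICC were below all p53LKO HCC for Bhmt2, while 3 ICC were within the HCC range for Bhmt. Bhmt2 fell by 2.09 (SE 0.56, limma adjusted p = 0.0114) and Bhmt was at -0.94 (SE 0.57, limma adjusted p = 0.199), not called. Its other probe on chromosome 13 was not called either (-0.88, adjusted p = 0.302), nor was the third (-0.83, adjusted p = 0.344), which the array's annotation places on chromosome 4. The call of Bhmt2 was lost with the row as a block (-2.18, adjusted p = 0.0616), in the lower row alone (adjusted p = 0.104) and with the methods' t-test (adjusted p = 0.0623). The log2 ratio of Bhmt2 to Bhmt changed by -1.16 (SE 0.31), with all ICC below all HCC (exact permutation p = 0.00794, adjusted p = 0.0317). Between the HCC groups the ratio differed by 0.36 (exact permutation p = 0.365, adjusted p = 0.417).

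Got1 and Got2 are the cytosolic and mitochondrial aspartate aminotransferases, and Gpt and Gpt2 those of alanine. Got2 read 5.02, 5.22, 5.05, 4.38 and 4.81 in p53f/f HCC, then 5.64, 5.51, 4.99, 5.95 and 5.63 in p53LKO HCC, and 3.83, 2.42, 3.23, 3.77 and 3.46 in ICC. Got1 read 5.24, 4.81, 3.89, 5.54 and 4.65, then 3.98, 4.82, 4.45, 4.28 and 4.92, and 4.10, 3.05, 3.11, 4.18 and 3.52 in the same order of groups. Got2 fell by 2.20 in ICC (SE 0.28, limma adjusted p = 0.000254), while Got1, at -0.90 (SE 0.28, adjusted p = 0.0227), stayed under 2-fold. Got1 was called lower too without the p53LKO HCC of mouse 3976 (-1.03, adjusted p = 0.0181), the ICC of mouse 3731 (-1.03, adjusted p = 0.0182) or the ICC of mouse 3977 (-1.04, adjusted p = 0.0147). The log2 ratio of Got2 to Got1 changed by -1.30 (SE 0.28) from HCC to ICC without overlap (exact permutation p = 0.00794, adjusted p = 0.0317), and was 0.98 (SE 0.46) apart between p53LKO and p53f/f HCC with overlap (exact permutation p = 0.0714, adjusted p = 0.114). The annotation of the array places the Got2 probe on chromosome 5, while the RefSeq table has the gene on another, and the values rest on that probe alone.

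Both alanine aminotransferases were lower in ICC. Gpt read 6.37, 6.29, 6.35, 5.96 and 5.45 in p53f/f HCC, then 4.69, 6.73, 5.60, 5.22 and 5.30 in p53LKO HCC, and 4.06, 3.16, 3.75, 3.99 and 4.54 in ICC. Gpt2 read 3.86, 3.34, 3.08, 3.51 and 3.59, then 3.48, 3.50, 2.63, 3.89 and 3.24, and 2.48, 0.70, 1.64, 2.27 and 1.68 in the same order. All ICC were below all p53LKO HCC for both genes. Gpt fell by 1.61 (SE 0.37, limma adjusted p = 0.00556) and Gpt2 fell by 1.59 (SE 0.34, limma adjusted p = 0.00394), and their log2 ratio differed by -0.02 (SE 0.47, exact permutation p = 0.976). In the lower row alone Gpt was not called (-1.81, adjusted p = 0.0543). Between the HCC groups that ratio differed by -0.44 (SE 0.48, exact permutation p = 0.365).

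Prodh, Aass and Dpyd, the first enzymes in the breakdown of proline, lysine and pyrimidines, were not called in either comparison. In ICC against p53LKO HCC their values were -0.36, -1.23 and -0.70. Aass was called with the mouse as a replicate block (-1.99, adjusted p = 0.0396). Prodh had the largest SD of all members within the p53f/f HCC (1.67, n = 5), with levels from 0.37 to 4.65, and Dpyd in the p53LKO HCC was 3.53 in the tumor of mouse 5283 and 1.79 to 2.25 in the other 4.

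The members varied more between ICC than between HCC. The median SD over the 40 members was 1.13 in ICC, 0.48 in p53LKO HCC and 0.46 in p53f/f HCC, against 0.36 in each group over 15938 genes tested in both comparisons. The ICC of mouse 3733 was the lowest of the 5 in 39 of 40 members, with Mat2a as the exception, and the highest was that of mouse 3977 in 22 members and that of mouse 3731 in 15. Relative to the p53LKO HCC mean of each gene, the median member was at -0.51 in the ICC of mouse 3977, -0.73 in that of mouse 3731, -1.44 in that of mouse 3976, -1.79 in that of mouse 5283 and -3.04 in that of mouse 3733. The summed hepatocyte marker level had the same order, at 11.2, 11.0, 10.6, 10.5 and 9.94, and their part in this order was not tested. Without the ICC of mouse 3733, 19 members were called lower, with a median of -1.10. Among the p53LKO HCC the tumor of mouse 5283 was the highest in 22 members, and its array had the fewest probes well above background.

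**Figure D5:**
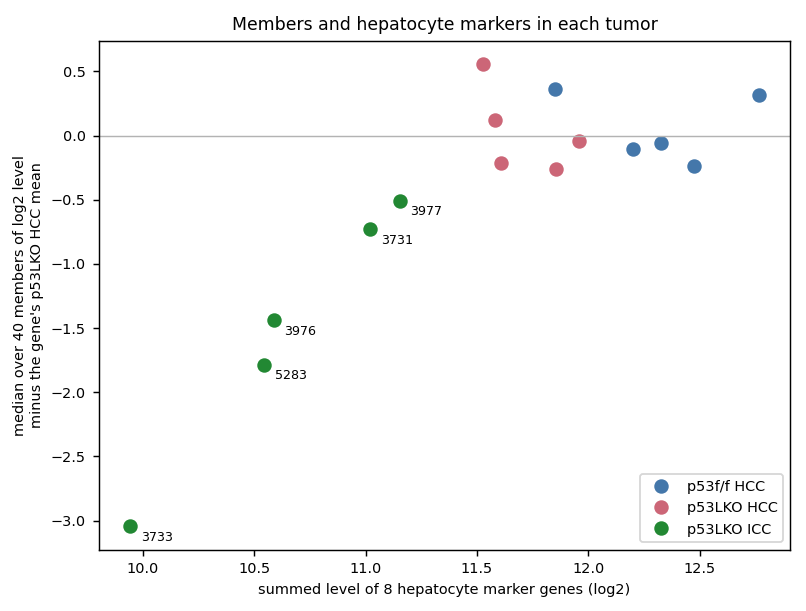
Median over the 40 members of the log2 level minus the p53LKO HCC mean of each gene (y axis) against the summed log2 level of 8 hepatocyte markers (x axis), 1 point per tumor, with mouse numbers beside the ICC. The ICC run from -3.04 at 9.94 to -0.51 at 11.2, and all HCC lie above them on both axes.

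Beyond the members, 61 further genes of the same pathways were on the array and 57 were tested in each comparison. Between the HCC groups 2 were called higher (5.42% of all genes) and 3 lower (9.00% of all genes). Both counts were below that background, and the median was -0.14 (0.09 over all genes). The remaining enzymes between urocanate and glutamate, Ftcd and Amdhd1, were both lower without overlap, at -2.04 (SE 0.37, limma adjusted p = 0.00209) and -1.40 (SE 0.29, limma adjusted p = 0.00444), so that 3 of 4 histidine pathway genes were called with Hal. Tdh, threonine dehydrogenase, was the third gene called lower, at -2.32 (SE 0.25, limma adjusted p = 0.000127). Its probe was not well above background on every p53LKO HCC array, so the size of this fall is uncertain. Mpst, which passes sulfur from mercaptopyruvate, was higher at 1.52 (SE 0.28, limma adjusted p = 0.00218), and Ido2, a second tryptophan dioxygenase, at 1.05 (SE 0.34, limma adjusted p = 0.0350). Ido2 thus differed in the opposite direction from Tdo2.

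In ICC against p53LKO HCC 31 of the 57 further genes were called lower (15.5% of all genes) and 1 higher (12.3% of all genes). Their median was -1.24 (-0.19 over all genes). Ido2 fell by 3.73 (SE 0.63, limma adjusted p = 0.00112), and Abat, which breaks down beta-alanine and GABA, fell by 2.82 (SE 0.39, limma adjusted p = 0.000384). Mpst fell by 2.60 (SE 0.32, limma adjusted p = 0.000187) and was thus highest in p53LKO HCC of the 3 groups, at 4.86 ± 0.39 (SD, n = 5). The list of serine, glycine, threonine and choline genes had 11 of 14 called lower. That of branched-chain and lysine genes had 3 of 16, near the share over all genes. The exception was Tdh, which was higher at 2.37 (SE 0.47, limma adjusted p = 0.00248) and so lowest in p53LKO HCC, where it was well above background on 3 of 5 arrays.

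Of 9 genes that make amino acids 4 were called higher in p53LKO HCC (5.42% of all genes) and 0 lower (9.00% of all genes). Their median was 1.27 (0.09 over all genes), and the list was chosen with earlier results of these data known. Psat1, of serine synthesis, was higher at 3.21 (SE 0.81, limma adjusted p = 0.0119), with levels of 3.33, -0.82, 0.68, 2.07 and 1.53 in p53f/f HCC, against 4.45, 2.76, 3.97, 5.06 and 6.62 in p53LKO HCC. The groups overlapped only through the p53f/f HCC of mouse 3681 and the p53LKO HCC of mouse 5283. Aldh18a1, which makes the precursor of proline and ornithine, was higher at 2.0 (SE 0.52, limma adjusted p = 0.0137), and Psph of serine synthesis was called higher too. In ICC against p53LKO HCC 6 of the 9 were called lower (15.5% of all genes) and 0 higher (12.3% of all genes). Their median was -1.06 (-0.19 over all genes), and Psat1 fell by 2.30 (SE 0.58, limma adjusted p = 0.00908).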

How the data were processed

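RNA of 15 tumors was hybridised to single-colour Agilent mouse arrays, and per the labels each sample's deposited file holds scanner intensity from Agilent Feature Extraction 10.7.3.1, already background-subtracted by the authors' software. The authors also deposited a table of log2 values, which was used as an alternative for the HCC comparison alone, because its HCC and ICC columns are centred on different arrays. Groups followed the labels.

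Spots of a probe were averaged, outlier spots left out, and the 75th percentile of each array subtracted from log2 of the processed signal. A probe was tested if 1 of the 2 groups had 3 or more arrays with it well above background. Tests used limma 3.58.1 in R 4.3.3 (lmFit, eBayes, Benjamini-Hochberg over all probes tested) and exact permutation tests, and plots matplotlib 3.10.9 in Python 3.11.15. The fit was tested on simulated data. The number of arrays limits the precision. Members and lists were chosen with earlier results of these data known. Levels in every tumor are given for up to 5 called members with the largest rise and fall in a comparison that were well above background on 3 arrays of each group, for 4 pairs of paralogs, and up to 3 further pathway or synthesis genes in each direction are named. Other genes with values in single tumors were chosen after their values were seen.

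Alternatives were normexp background correction (offset 50), quantile, spike-in and detected-probe scaling, other filters, slide and row blocks, the methods' t-test and Mann-Whitney test, the mean of the 2 tumors of mouse 3717, the mouse as a replicate block and each array left out. Each slide alone was added after seeing the data. HCC and ICC of 4 mice were paired through the animal named in the labels. Over 32666 probes the deviations of these pairs correlated at -0.14 to 0.07, and those of the 21 pairs of different mice at -0.26 to 0.28. No sequence data of proteins were used here. One gene counted in a list is not reported here by itself.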

Additional observations from a re-analysis of the deposited data

Results flagged for a closer look

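In each group of 5 tumors the highest and lowest level of every member was set against the nearest of the other 4. Of 120 sets of 5 tested, 3 had a tumor further from the others than Dixon's 95% critical value allows, where chance gives about 1 in 20 sets. Mut was 3.60 in the p53f/f HCC of mouse 3715 and 3.02 to 3.13 in the other 4. Dpyd was 3.53 in the p53LKO HCC of mouse 5283 and 1.79 to 2.25 in the others. Sardh was 0.95 in the ICC of mouse 3733 and 2.88 to 3.64 in the other ICC.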

How the results depend on the processing

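Between the HCC groups Hal and Tdo2 were called in all 27 alternatives planned, Agxt in all but 3 and Csad in all but 13. The 1 member called higher became 2 with normexp, 10 with spike-in scaling, 4 without a fold limit and 3 with a slide block. It became 0 with quantile normalization, with the percentile of detected probes (which moved the median of all genes by -0.25), without a filter, with the row as a block, in the upper row alone, with the methods' t-test or the Mann-Whitney test, with the mean of the tumors of mouse 3717, and on slide 1 or slide 2 alone, and it was 0 to 3 when 1 tumor was left out. The 3 called lower became 5 without a fold limit, 4 with the percentile of detected probes, with the row as a block and in the upper row alone, 2 with a slide block, the methods' t-test and the Mann-Whitney test, 1 on slide 1 alone and 0 on slide 2 alone, where 1 p53f/f HCC was set against 3 p53LKO HCC and the lone tumor was assumed to vary like the others, and 3 when any 1 tumor was left out. With the slide as a block the median of the members turned from -0.12 to 0.05. The causes of these differences were not tested.

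The 26 alternatives counted for ICC leave out each slide alone. In 1 of them, the filter for every array of both groups, Sds was not tested. Of the 24 members lower in ICC, 12, Sds among them, were called in all of the 26 that tested them. The count was lowest, 17, with the percentile of detected probes (which moved the median of all genes by 0.37 and the calls over all genes to 18.2% higher and 8.46% lower), with the methods' t-test and in the lower row alone, was 19 to 26 when 1 tumor was left out, and 1 on slide 1 alone, where the single ICC was assumed to vary like the HCC. With the mouse as a replicate block it was 26, and the paired fit changed no call other than those of Mat1a, Hal, Aass and Csad. No result reversed its sign and call under any alternative run.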
